A study of Rattus norvegicus with 2 samples.

Results

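Pdx1, the Notch ligand gene Dll1 and the receptor genes Notch3 and Notch4 were followed in rat bone marrow mesenchymal stem cells after reprogramming with pancreatic factors. Heyl and Hes6, of the Hey and Hes families, were followed with them. The 6 genes were chosen by symbol from the 2325 genes of a deposited table. The transfected library came from Sprague-Dawley bone marrow mesenchymal stem cells at passage 3 to 5, taken 10 days after transfection with Pdx1 and Ngn3 (symbol Neurog3). The untransfected library came from cells of the same strain, tissue and passage range, which received no construct. The control therefore lacks the transfection procedure as well as the introduced genes. The vector, its promoter, the species of the introduced sequences and the number of animals were not described in the labels used here. The table holds only genes that the authors had already selected. No log2 ratio in the authors' deposited table is smaller than 1.00 in size and no false discovery rate exceeds 0.000996, so all 2325 genes (100%) passed the rule for higher or lower used here. Of them 1476 (63.5%) were higher and 849 (36.5%) lower in the transfected library. A direction is thus the most that a listed gene can add, and no spread between cultures could be measured. Intervals below cover counting error only, because there was 1 library per condition and reads amplified by PCR carry no molecular identifiers, so some may be copies of one molecule.

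Pdx1 is a homeodomain transcription factor required for the growth of the pancreas and, later, for insulin gene expression in beta cells. Neurog3 is a basic helix-loop-helix factor that starts the endocrine programme in pancreatic progenitors. Notch signalling acts between neighbouring cells: a ligand such as Dll1 on one cell binds a Notch receptor on the next, the receptor is cut, and its intracellular domain joins the DNA-binding protein RBPJ to switch on target genes. Many of those targets encode repressors of the Hes and Hey families. In the developing mouse pancreas, cells that turn on Neurog3 also make Dll1, and Hes1 downstream of Notch represses Neurog3 in the cells around them. This circuit of a proneural factor, its ligand and the responding repressors is known as lateral inhibition, and it is shared with the nervous system.

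The windows around the annotated starts of Dll1, Heyl and Hes6 are shown because these ligand, Hes and Hey genes were higher. So were Pdx1, Notch3 and 63.5% of all listed genes, and nothing particular to the windows shown is read from the shared direction. Each window runs 5′ to 3′ on the gene's strand, from 250 bases before to 50 bases after the start, in RefSeq's GRCr8 build. Capitals mark matches to any of 5 motifs on either strand. These were CANNTG (the E-box of basic helix-loop-helix factors), CAGATG (the neurogenin-type form, itself an E-box), TGGGAA (the RBPJ core), TAATNA (homeodomain) and CACGNG (the site of Hes and Hey repressors, which overlaps the E-box where it reads CACGTG). Dll1 lies at chr1:64993225-64993524 on the minus strand, Heyl at chr5:140793021-140793320 on the plus strand and Hes6 at chr9:99451047-99451346 on the minus strand.
Dll1: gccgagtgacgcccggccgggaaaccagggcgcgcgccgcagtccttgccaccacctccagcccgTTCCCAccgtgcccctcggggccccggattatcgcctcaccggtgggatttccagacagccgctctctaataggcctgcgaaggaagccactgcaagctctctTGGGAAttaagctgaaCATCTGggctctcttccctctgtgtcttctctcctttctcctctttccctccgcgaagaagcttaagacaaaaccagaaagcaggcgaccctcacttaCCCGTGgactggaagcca
Heyl: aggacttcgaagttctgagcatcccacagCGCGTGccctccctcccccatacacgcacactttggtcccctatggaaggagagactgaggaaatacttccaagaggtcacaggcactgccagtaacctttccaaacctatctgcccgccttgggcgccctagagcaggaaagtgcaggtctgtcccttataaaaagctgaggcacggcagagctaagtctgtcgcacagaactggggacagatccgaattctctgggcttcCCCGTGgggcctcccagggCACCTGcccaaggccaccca
Hes6: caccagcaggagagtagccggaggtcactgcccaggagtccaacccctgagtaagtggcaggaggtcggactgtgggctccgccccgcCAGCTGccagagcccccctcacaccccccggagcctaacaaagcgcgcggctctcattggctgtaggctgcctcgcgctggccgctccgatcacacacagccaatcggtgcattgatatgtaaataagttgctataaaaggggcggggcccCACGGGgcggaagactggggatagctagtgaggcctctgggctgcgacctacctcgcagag

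In the Dll1 window the neurogenin-type E-box, written CATCTG on the gene's strand, covers positions -66 to -61. An RBPJ core stands just before it at positions -82 to -77, another lies at -185 to -180, and a Hes and Hey site at 33 to 38. The Heyl window has Hes and Hey sites at -221 to -216 and at 12 to 17 and an E-box at 31 to 36. The Hes6 window has an E-box at -162 to -157 and a Hes and Hey site at -11 to -6. All of these are short motifs that many promoters carry. Among 33469 rat promoter windows of the same length, 72.1% held an E-box, 16.6% the neurogenin-type E-box, 25.7% an RBPJ core, 28.0% the homeodomain motif and 26.1% a Hes and Hey site. None of the 6 windows held the homeodomain motif. Notch3 had an RBPJ core at 43 to 48, Notch4 had one at -246 to -241 and another at -93 to -88, and neither had an E-box in this window. Pdx1 had 3 E-boxes, the one at -73 to -68 being also a Hes and Hey site. A match is a run of letters and not evidence of binding, and binding was not measured.

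**Figure D1:**
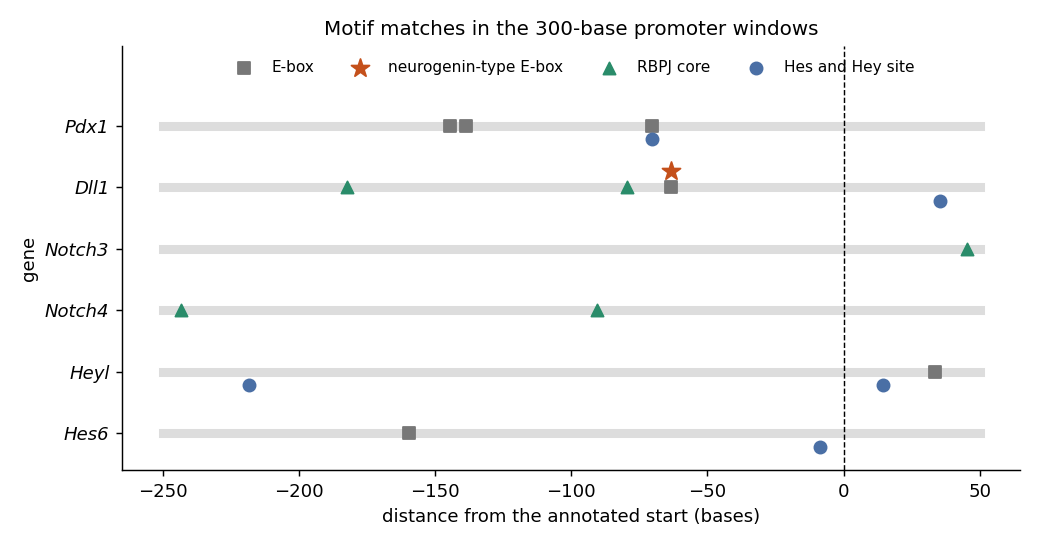
Matches of the motifs in the promoter windows of the 6 genes, by distance from the annotated start in bases; 1 symbol is 1 match on either strand, at the centre of the match, with symbols for overlapping motifs set above or below the bar. The neurogenin-type E-box occurs in the Dll1 window, at -66 to -61, and in 16.6% of all rat promoter windows, so its presence in 1 of 6 windows is near that share.

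Depth was 7415094 reads in the transfected and 7800831 reads in the untransfected library, and the listed genes held 20.2% and 21.7% of those reads. Of 16 mesenchymal stem cell markers 7 were listed, 4 higher and 3 lower, beside 63.5% higher and 36.5% lower among all listed genes. Markers at equal levels cannot appear among genes selected for change, so these values could not test the labelled cell type. All 7 had reads in both libraries, while 109 listed genes had 0 untransfected reads and 9 had 0 transfected reads. Thy1 (CD90) was at 322 RPKM in transfected and 1101 RPKM in untransfected cells, and Itgb1 (CD29) at 519 RPKM in transfected and 1057 RPKM in untransfected cells. Cxcl12, a chemokine of marrow stroma, was at 65.4 and 23.2 RPKM, and the receptor gene Pdgfra at 64.7 and 25.1 RPKM, in the transfected and untransfected libraries. RPKM is reads per kilobase of the quoted cDNA and scaled by the library total, and was recomputed here. Of 21 blood cell markers 4 were listed, 2 higher and 2 lower, beside the same 63.5% and 36.5% of all listed genes. They summed to 5.22 RPKM in transfected and 12.4 RPKM in untransfected cells. Those 4 were Cd74 (0.477 and 8.70 RPKM), RT1-Db1 (0.104 and 3.17 RPKM), Cd68 (2.86 and 0.524 RPKM) and Cd4 (1.77 RPKM against 0 reads), with the transfected value first. The part of blood cells in the results below was not tested.

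Pdx1, one of the introduced factors, had 565 reads in the transfected library and 0 in the untransfected library. Its level was 54.3 RPKM in transfected cells (interval 49.9 to 59.0), while 0 reads allow up to 0.274 RPKM in untransfected cells at a limit of 3 reads. With untransfected Pdx1 set at that limit the gene was at least 198-fold higher, and by the stricter exact interval of the ratio at least 161-fold. The value at the 3-read limit was 116-fold with TMM and 86.1-fold with median-of-ratios factors, scalings that are described with the other ratios. By the end of the interval nearest to no change it ranked 6 among the 1476 higher genes. The labels and the Pdx1 reads thus point the same way. The quoted Pdx1 cDNA is 1403 bases long, of which 852 (60.7%) are coding. Had all 565 reads come from the coding part, the transfected level would be 89.4 RPKM over coding length. Reads of the introduced and the cells' own Pdx1 cannot be told apart in these counts. Of the 2 introduced factors only Pdx1 was found among the listed genes, so the level of Neurog3 was not analysed here. That absence does not show whether Neurog3 was expressed.

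Dll1, which encodes a transmembrane ligand of Notch receptors, had 94 reads in transfected and 3 reads in untransfected cells. This was 4.54 RPKM in transfected cells (3.67 to 5.55) and 0.138 RPKM in untransfected cells (0.0284 to 0.402). Dll1 was 33.0-fold higher with an interval of the ratio from 10.9 to 163. It ranked 97 among the higher genes. The wide interval comes from the 3 untransfected reads, and the transfected level itself is known within a narrow range.

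The receptor genes went in opposite directions. Notch3, which encodes a receptor best known from vascular mural cells (pericytes and smooth muscle), had 30 reads in transfected and 4 in untransfected cells. Its level was 0.553 RPKM in transfected (0.373 to 0.789) and 0.0701 RPKM in untransfected cells (0.0191 to 0.179), a 7.89-fold higher value (2.78 to 30.8). Notch4, which encodes a receptor best known from endothelium, had 10 reads in transfected and 45 in untransfected cells. Its level was 0.208 RPKM in transfected (0.0998 to 0.383) and 0.890 RPKM in untransfected cells (0.649 to 1.19), a 4.28-fold lower value (2.13 to 9.52). For neither gene did the intervals of the libraries overlap, which selection of the listed genes for change makes likely in advance. The share of all listed genes without overlap was not computed. As these receptors are paralogs and the handling of shared reads is not given, a small number of reads could be assigned to either. Fewer cells expressing a gene and less RNA per cell cannot be told apart in bulk RNA, here or for any other gene.

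Taken as shares within each library, the receptor reads do not depend on library totals. Notch3 made up 30 of 40 reads of the pair in transfected cells (75.0%, exact binomial interval 58.8 to 87.3%) and 4 of 49 in untransfected cells (8.16%, 2.27 to 19.6%). Notch4 thus held most receptor reads of the pair in untransfected cells and Notch3 held most in transfected cells. On the per-length scale the Notch3 share was 72.7% of the summed RPKM in transfected and 7.30% in untransfected cells. The summed level of the pair was 0.761 RPKM in transfected and 0.960 RPKM in untransfected cells. Dll1 stood at 5.96 times that sum in transfected and at 0.143 times in untransfected cells. The listed genes were selected for change, so a pair of a higher and a lower gene had to differ in share. The receptor shares are therefore no separate support for the opposite directions. Notch1 and Notch2 were not analysed here, so these are shares of the listed receptors and not of all Notch receptors.

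**Figure D2:**
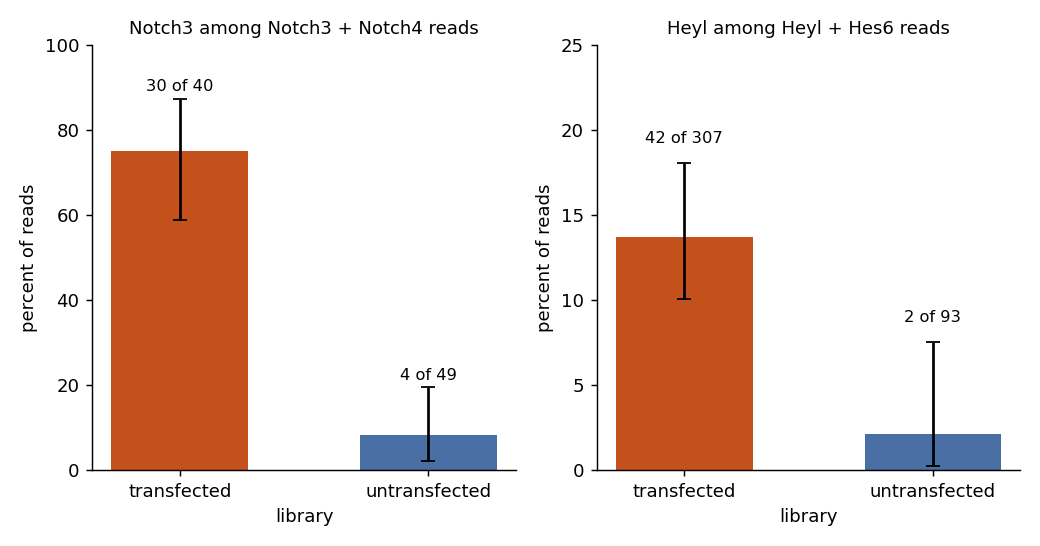
Share of Notch3 among Notch3 and Notch4 reads (left) and of Heyl among Heyl and Hes6 reads (right), in percent of reads, transfected library left and untransfected library right in each panel; bars are shares, whiskers exact 95% binomial intervals, and the labels give the reads. The Notch3 share is 75.0% in transfected against 8.16% in untransfected cells, and the Heyl share 13.7% against 2.15%. The panels have different vertical scales, and selection for change makes both differences likely in advance.

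The Hes and Hey family genes were both higher, from very different starting levels. Heyl, a repressor of the Hey family that Notch receptors induce in vascular smooth muscle, had 42 reads in transfected and 2 in untransfected cells. It was at 1.22 RPKM in transfected (0.876 to 1.64) and 0.0550 RPKM in untransfected cells (0.00667 to 0.199), a 22.1-fold higher value (5.75 to 188). Heyl was thus close to the detection limit in untransfected cells, where 3 reads correspond to 0.0826 RPKM. Hes6, unlike most of its family, opposes Hes1 and promotes neuronal differentiation in mice, and neurogenins induce it in frog embryos. It had 265 reads in transfected and 91 in untransfected cells, or 25.3 RPKM (22.4 to 28.6) against 8.27 RPKM (6.66 to 10.2). Hes6 was 3.06-fold higher (2.41 to 3.93), which is the narrowest interval of the 6 genes and a change smaller than the median of the higher genes in the table (3.41-fold). Heyl made up 42 of 307 reads of the pair in transfected cells (13.7%, 10.0 to 18.0%) and 2 of 93 in untransfected cells (2.15%, 0.262 to 7.55%). Per length, with the Heyl cDNA (4658 bases) longer than that of Hes6 (1410 bases), the Heyl share was 4.58% of the summed RPKM in transfected and 0.661% in untransfected cells. Hes6 held the larger share in both libraries on either scale. Listed higher genes with 2 untransfected reads had at least 23 transfected reads. Selection thus made a rise of the Heyl share likely in advance, and these shares are no separate support for a difference between Heyl and Hes6.

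**Figure D3:**
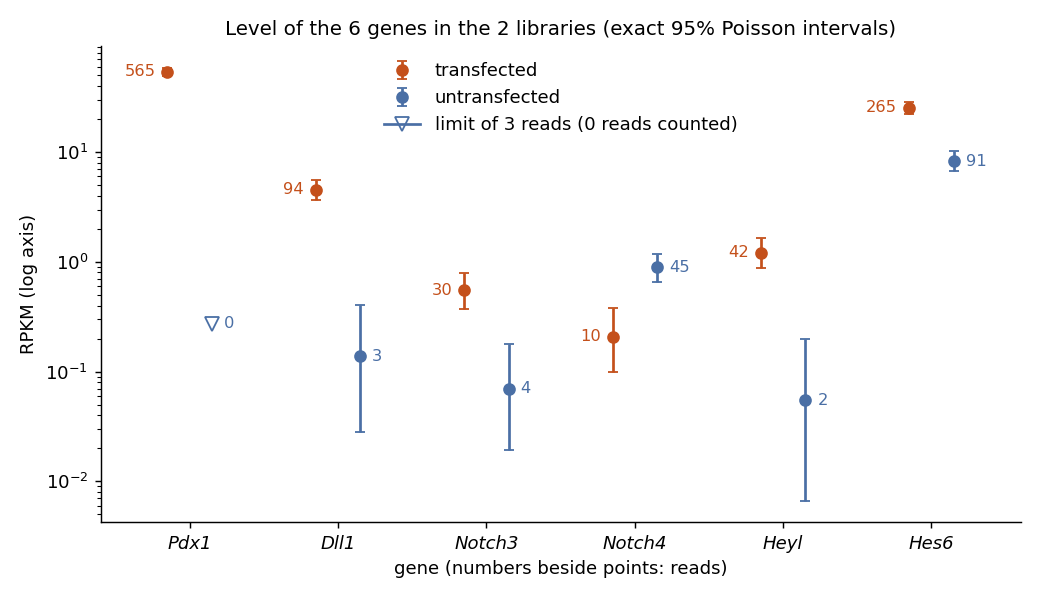
Levels of the 6 genes in RPKM on a log axis, transfected library left of the untransfected library for each gene; points are single libraries, whiskers exact 95% Poisson intervals, numbers are reads, and the open triangle is the 3-read limit for 0 reads. Notch4 is the one gene with its transfected point (10 reads) below its untransfected point (45 reads). The libraries' intervals do not overlap for Dll1, Notch3, Notch4, Heyl or Hes6, which selection for change makes likely in advance. The share of all listed genes without overlap was not computed.

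In transfected cells the order of levels per length was Pdx1, Hes6, Dll1, Heyl, Notch3 and Notch4, from 54.3 to 0.208 RPKM. Each step of that order exceeded the separate counting intervals except the last, where those of Notch3 and Notch4 overlapped. The Notch3 share of their summed RPKM in the transfected library had an interval of 55.8 to 85.9%, which lies above an equal share. The step from Dll1 to Heyl depends on the length used: 21.1% of the Heyl cDNA is coding, and over coding length Dll1 was at 5.91 and Heyl at 5.77 RPKM in transfected cells. In untransfected cells Hes6 came first at 8.27 RPKM and Notch4 second at 0.890 RPKM, and Dll1, Notch3, Heyl and Pdx1 lay below with intervals that overlapped one another. Only Pdx1 and Hes6 lay above the median transfected level of the listed genes (10.2 RPKM), and among untransfected levels only Hes6 lay above the median (6.54 RPKM). In transfected cells 29.0% of listed genes had a lower level than Dll1, 8.82% a lower level than Heyl, 4.69% a lower level than Notch3 and 2.11% a lower level than Notch4. Both receptor transcripts were thus among the scarcest listed in transfected cells.

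The sizes of the ratios were compared between genes, a comparison that library totals cannot shift. Among the 5 genes with reads in both libraries there are 10 pairs, and for 6 of them the interval of the ratio of ratios excluded 1. The ratio of Notch3 was 33.8 times that of Notch4 (8.69 to 153), and that of Dll1 was 10.8 times that of Hes6 (3.42 to 54.2). Heyl exceeded Hes6 by 7.21 times (1.81 to 62.5). The intervals held 1 for Dll1 with Heyl (1.49 times, 0.120 to 13.5), Dll1 with Notch3 (4.18 times, 0.657 to 29.7), Heyl with Notch3 (2.80 times, 0.369 to 32.4) and Notch3 with Hes6 (2.58 times, 0.871 to 10.3). An order among Dll1, Heyl and Notch3 was therefore not detectable at this depth. The Hes6 ratio was smaller than those of Dll1 and Heyl, which the selection of listed genes makes likely in advance. The 3 other pairs whose intervals excluded 1 are those of Notch4 with Dll1, Heyl and Hes6. Each pair with Notch4 sets a gene selected as higher against one selected as lower, so its exclusion of 1 was largely settled by the selection. Among pairs of higher genes, the intervals excluded 1 for Dll1 with Hes6 and Heyl with Hes6 only. Listed higher genes with 2, 3 and 4 untransfected reads had at least 23, 25 and 24 transfected reads. Heyl, Dll1 and Notch3, with so few untransfected reads, were thus likely to be listed only at large ratios. That the Dll1 and Heyl ratios exceeded that of Hes6 was therefore largely settled by the selection too.

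Another scaling moved all ratios together. TMM and median-of-ratios factors, computed on genes selected for change, shifted every log2 ratio by -0.78 and -1.20, and column sums of the listed genes by 0.10. The directions of all 6 genes held under each of these. Hes6 was 1.33-fold higher with median-of-ratios factors (1.05 to 1.71) and 1.79-fold higher with TMM (1.40 to 2.30), under the 2-fold rule in both cases. With these factors 22% and 31.6% of all listed genes were called higher, and 36.5% lower with either. Notch4 was 9.84-fold lower with median-of-ratios factors. When a biological coefficient of variation of 0.4 was assumed in each library, the Hes6 interval became 0.986 to 9.52 and held 1. The widened intervals of the other 5 genes excluded 1, from 1.72 to 36.2 for Notch3 and from 1.16 to 15.7 times lower for Notch4. Under that assumption 32% of listed genes were called higher and 17.1% lower.

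**Figure D4:**
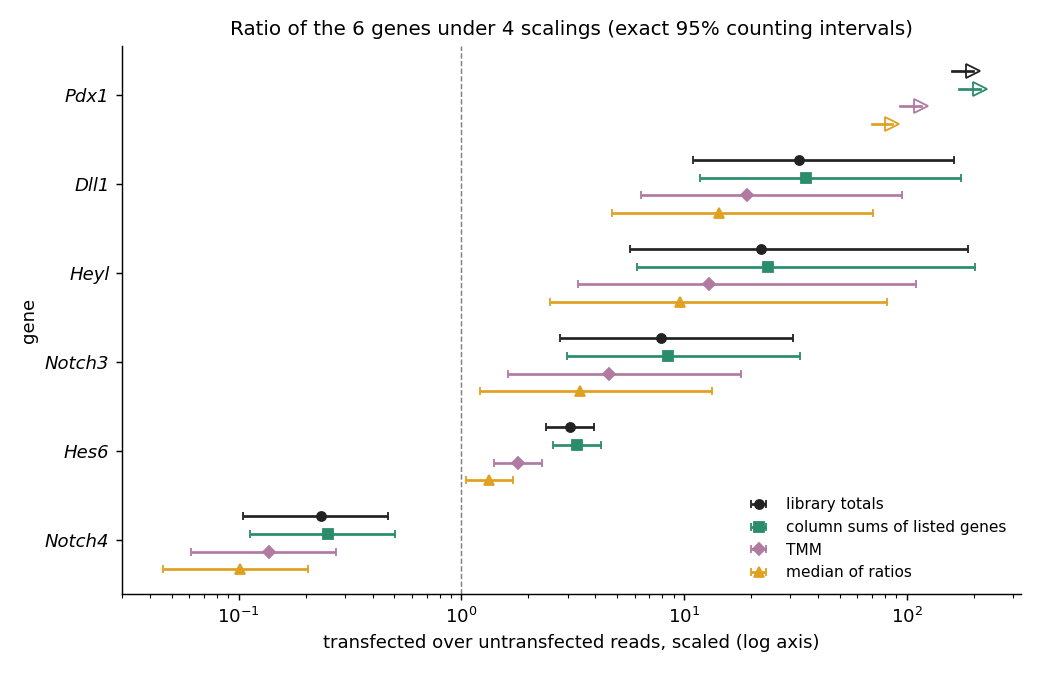
Ratio of transfected over untransfected reads for the 6 genes on a log axis under 4 scalings; points are ratios, whiskers exact 95% counting intervals, arrows for Pdx1 start at the exact lower limit and end at the value against a 3-read limit, and the dashed line marks equal levels. No interval crosses the dashed line, and Hes6 comes closest at 1.33-fold with median-of-ratios factors.

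Of 78 genes in the 5 Notch lists (ligands, receptors, processing and trafficking, nuclear factors, and Hes and Hey families), 10 were listed. They include Dll1, Notch3, Notch4, Heyl and Hes6. Of the 10, 8 were higher and 2 lower, a share of 80% higher beside 63.5% of all listed genes, with a median log2 ratio of 1.55 beside 1.24. With 10 genes these shares are near each other, and nothing particular to the lists is read from them. With a ratio of at least 4 the counts were 4 higher and 2 lower, where 26.5% of all listed genes were higher and 12.3% lower by that rule. The other 68 genes were not analysed here.

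Among the 11 ligand and ligand-like genes, 3 were listed, 2 higher and 1 lower. Dlk1, a Delta-like membrane protein that lacks the receptor-binding domain of Dll1, had 43 reads in transfected and 3 in untransfected cells, and was 15.1-fold higher (4.83 to 76.0). Mfap5, a microfibril protein that can bind Notch1, was at 26.2 RPKM in transfected and 153 RPKM in untransfected cells, 5.85-fold lower (5.01 to 6.86). Of the 4 receptors, 2 were listed, as described. Of 31 processing and trafficking genes, 2 were listed and both were higher. Dtx2, a Deltex ubiquitin ligase that binds Notch receptors, had 281 reads in transfected and 105 in untransfected cells and was 2.82-fold higher (2.24 to 3.56). Dtx3l, a Deltex relative that works with Parp9 in DNA repair and interferon responses, had 251 and 132 reads in the transfected and untransfected libraries. It was 2.0-fold higher (1.61 to 2.49) and turned lower with median-of-ratios factors, the one of the 10 genes that did. Of 22 nuclear factors, Pcaf (current symbol Kat2b), an acetyltransferase that acts with the Notch intracellular domain, was listed. It was 2.42-fold higher (1.98 to 2.97), at 18.0 RPKM in transfected and 7.44 RPKM in untransfected cells. Of the 10 Hes and Hey genes, Heyl and Hes6 were listed and the rest were not analysed here.

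**Figure D5:**
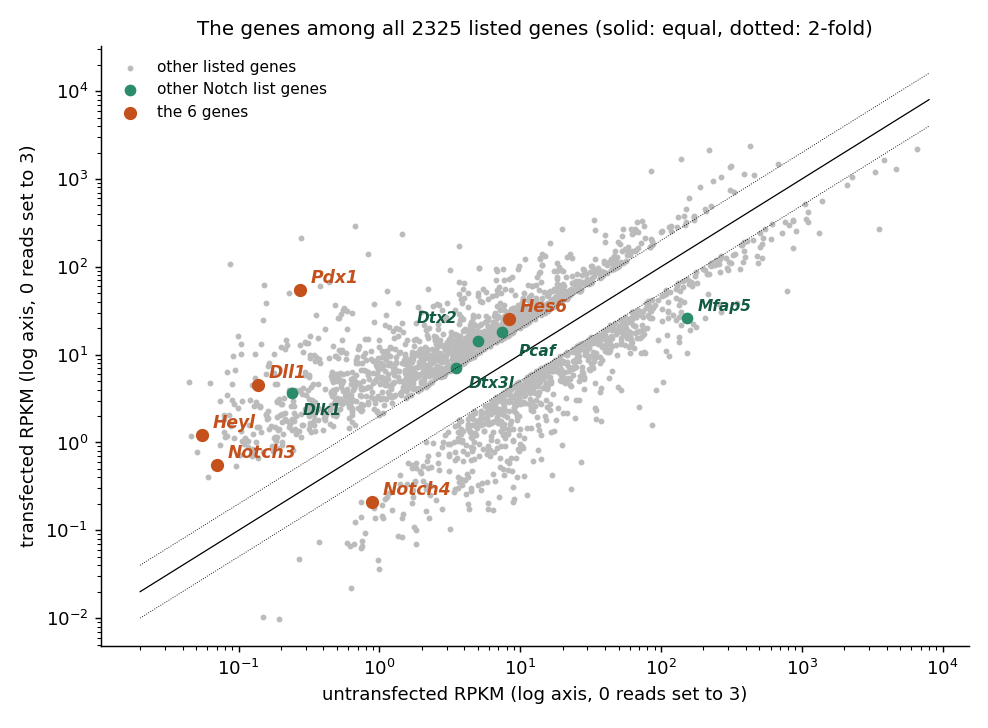
Transfected RPKM against untransfected RPKM on log axes for the 2325 listed genes, with a count of 0 set to 3 reads; orange points are the 6 genes, green points the other 5 listed genes of the Notch lists, the solid line marks equal levels and dotted lines 2-fold. Dll1, Heyl, Notch3 and Dlk1 lie above the line at low untransfected levels, Notch4 and Mfap5 lie below it, and the gap along the line shows that the table holds selected genes.

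Other helix-loop-helix genes went both ways. Of 41 basic helix-loop-helix and Id genes outside the Hes and Hey families, 6 were listed, 4 higher and 2 lower. The share of 66.7% higher is near the 63.5% of all listed genes, and nothing particular to these genes is read from it. Atoh8, an atonal relative, was at 39.9 RPKM in transfected and 5.34 RPKM in untransfected cells, 7.47-fold higher (6.05 to 9.32). Id1 and Id2 encode proteins that bind basic helix-loop-helix factors and keep them off DNA. Id1 was 5.72-fold higher (3.95 to 8.51) and Id2 2.78-fold higher (2.14 to 3.65). Id4, named outside the rule after its values were seen, went the other way, with 7 reads in transfected and 33 in untransfected cells, 4.48-fold lower (1.95 to 12.0). Scx, scleraxis of tendon progenitors, was 9.93-fold lower (6.68 to 15.3), at 1.81 RPKM in transfected and 17.9 RPKM in untransfected cells. Bhlha15, also named outside the rule, had 25 reads in transfected and 3 in untransfected cells, 8.77-fold higher (2.68 to 45.4).

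Of 22 endocrine factors that act with or after Neurog3, Cbfa2t3 was listed, a corepressor of the ETO family. It had 262 reads in transfected and 3 in untransfected cells and was 91.9-fold higher (31.1 to 448), ranking 29 among the higher genes. The other 21 were not analysed here. Of 27 Pdx1 target and partner genes, 5 were listed, 4 higher and 1 lower, beside 63.5% of all listed genes that were higher. Pdx1 itself, an introduced gene, is one of the 4. Robo1, a Slit receptor of axons and pancreatic progenitors, was at 29.0 RPKM in transfected and 3.70 RPKM in untransfected cells, 7.84-fold higher (6.58 to 9.40). Robo2 was 2.45-fold higher (1.93 to 3.13). Meis1, a homeodomain partner, was 2.10-fold lower (1.69 to 2.62). Syt1, a calcium sensor of vesicle release named outside the rule after its values were seen, had 30 reads in transfected and 0 in untransfected cells, at least 10.5-fold higher against the 3-read limit and at least 8.04-fold by the exact interval.

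Markers of cell types that use these receptors moved as follows. Of 16 mural markers apart from Notch3 and Heyl, 8 were listed, 1 higher and 7 lower. Their levels summed to 3599 RPKM in transfected and 12254 RPKM in untransfected cells. Tagln (2186 and 6522 RPKM), Acta2 (1298 and 4648 RPKM), Cnn1 (52.9 and 778 RPKM) and Myh11 (41.7 and 137 RPKM) were lower in the transfected library, which is given first. The one higher marker, Rgs5, a pericyte gene named after its values were seen, had 39 reads in transfected and 0 in untransfected cells. Notch3 and Heyl were thus higher in the library where 7 of 8 listed mural markers were lower, beside 36.5% of all listed genes that were lower. Acta2 is one of several near-identical actin genes, and its count is uncertain. Of 21 endothelial markers apart from Notch4, Egfl7 was listed. It was at 1.57 RPKM in transfected and 5.30 RPKM in untransfected cells, 3.37-fold lower (2.08 to 5.68), in the same direction as Notch4. Neuronal markers had 6 of 19 listed and all 6 higher, beside 63.5% of all listed genes, summing to 91.1 RPKM in transfected and 17.9 RPKM in untransfected cells. Nes, nestin, also stands among the mesenchymal stem cell markers. The 4 with the highest levels were Tubb3 (66.3 and 14.1 RPKM), Nefh (7.02 and 2.03 RPKM), Nes (5.28 and 0.949 RPKM) and Dcx (5.42 and 0.131 RPKM), with the transfected value first. The part of these cell types in the levels of the 6 genes was not tested.

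For each of the 6 genes the nearest listed genes were sought by distance between log2 RPKM values over the 2 libraries, which describes level and ratio together and nothing more. For Ass1, Opcml and Megf6, with 0 untransfected reads, the distance rests on the 3-read limit and so does their place as nearest. Nearest to Pdx1 were Ass1, with 638 reads in transfected and 0 in untransfected cells (distance 0.29), and Prom1, with 1654 and 11 reads (0.49). Nearest to Dll1 were Opcml, a neuronal adhesion gene with 103 and 0 reads (0.13), and Dcx, the microtubule protein of young neurons, with 355 and 9 reads (0.27), in transfected and untransfected cells. Megf6, with 24 reads in transfected and 0 in untransfected cells (0.08), and the potassium channel gene Kcna6 (0.44) were nearest to Notch3, and Gucy2c (0.22) and Sez6l2 (0.25) to Notch4. Tbx4, a T-box factor with 32 reads in transfected and 2 in untransfected cells (0.53), and Nell2 (0.55) were nearest to Heyl. Hes6 was closest to Snx12 (0.02) and Ephx1 (0.09).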

How the data were processed

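RNA sequencing libraries of transfected and untransfected rat cells were compared, 1 per condition. Per the labels' protocols, oligo(dT)-selected messenger RNA was fragmented and primed with random hexamers, with no strand-marking step named. The submitters' processing notes name the genome build as rn4. The aligner, the counter and the handling of reads shared between genes were not given in the sources used here. The authors deposited raw read counts per gene, and RPKM that they computed from those counts with 0.001 written for 0 reads. Each row's description quotes a representative cDNA, whose length the authors deposited as the gene length. The deposited log2 ratio is that of the RPKM values, and the authors' deposited p-value and false discovery rate come from a test that the labels do not name.

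The read total of each library was worked out from counts, lengths and RPKM, was the same in all but 1 row, and served as its depth. Ratios carry exact 95% Clopper-Pearson intervals, levels exact Poisson intervals, and a count of 0 was set to 3 reads (scipy 1.17.1, pandas 2.3.3). A gene was called higher or lower at a ratio of at least 2 whose interval excluded 1. Alternative scalings came from edgeR 4.0.16 (TMM) and DESeq2 1.42.0 (median of ratios). Interval code was tested on simulated data. The genes and lists were chosen with earlier results of these data known. Named genes were the 6 described, every listed gene of the Notch lists, the 2 nearest genes of each of the 6, and the 4 listed genes of highest mean RPKM from each other list. Promoter windows came from RefSeq (GRCr8), which matched all 6 genes.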

Additional observations from a re-analysis of the deposited data

How the results depend on the processing

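With 1 library per condition no library could be left out, and no replicate-based DESeq2 or edgeR test could be made. No paired analysis was possible because each condition has 1 library. The directions of the 6 genes held under every alternative, of which only the other scalings could have turned one. On the log2 scale Pdx1 was 7.63, against 6.85 with TMM and 6.43 with median-of-ratios factors. Hes6 was 1.62, against 0.84 and 0.41 with those factors, and Notch4 was -2.10, against -3.30 with median-of-ratios factors. As log2 ratios of RPKM + 1 the values were 5.79 for Pdx1, 2.28 for Dll1, 1.07 for Heyl, 0.54 for Notch3 and -0.65 for Notch4. They are smaller in size because a pseudocount of 1 exceeds most of these levels. By the 2-fold rule 6 genes of the Notch lists then stayed higher and 1 lower, and of the 6 genes 4 stayed higher, without Notch3, and 0 lower. The share of all listed genes called with that pseudocount was not computed, so nothing particular to these genes is read from the counts. The count of higher genes in the Notch lists was 8, and 4 with TMM, with median-of-ratios factors, with the assumed coefficient of variation and with a ratio of at least 4. Per length, the Heyl share of the pair of Heyl and Hes6 was 4.58% in transfected cells. Depth limits Dll1, Notch3 and Heyl, whose untransfected levels rest on 3, 4 and 2 reads. Coding length as the denominator, chosen after seeing the data, gave levels in transfected cells of 89.4 RPKM for Pdx1, 50.7 for Hes6, 5.91 for Dll1 and 5.77 for Heyl, and in untransfected cells of 16.5 for Hes6 and 0.261 for Heyl.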

Other observations

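The authors' deposited table held no higher gene with exactly 1 untransfected read, while 109 had 0 reads and 34 had 2. Lower genes with exactly 1 transfected read numbered 11. In the authors' deposited table the p-value of a higher gene had a lowest value that differed with its untransfected count: 0.000121 over the 34 genes with 2 reads, 7.92e-05 over the 16 with 3 and 5.07e-05 over the 32 with 4. Heyl, with 42 transfected reads, and Dll1, with 94, stood exactly at these lowest values, and Notch3, with 30, was close to it at 5.24e-05. Cbfa2t3, with 262 transfected and 3 untransfected reads, had the same deposited p-value as Dll1. Notch4, with 10 transfected and 45 untransfected reads, had a deposited p-value of 3.09e-06, smaller than that of Dll1. The false discovery rate of Heyl in the authors' deposited table was 0.000949, near the largest in the table (0.000996). The cause was not tested.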
